A study of Mus musculus with 16 samples.

Results

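The sialyltransferases described here are 10 mouse genes, chosen by symbol from the 21442 genes of the deposited count table: St3gal1, St3gal3, St3gal4, St3gal6, St6gal1, St6galnac1, St6galnac2, St6galnac3, St6galnac4 and St6galnac6. RNA was sequenced from goblet cells, which secrete intestinal mucus, and from the other epithelial cells of the mouse distal colon, sorted by the presence or absence of mCherry fluorescence. The mice were 6 to 8 weeks old, and all of them carried the RedMUC298trTg reporter. The sources used here do not name the promoter that drives the reporter. There were 4 groups of 4 libraries. SpdefKO_GC were goblet cells of reporter mice lacking Spdef (Spdef -/-), a transcription factor of secretory cells, and WT_GC were goblet cells of reporter mice with Spdef. SpdefKO_EC and WT_EC were the mCherry-negative epithelial cells of the same genotypes. Goblet cell lysates went through a different RNA column (MinElute) from the other lysates (Mini), so column and cell fraction cannot be told apart. Nothing in the labels ties the 4 libraries of a group to different animals, and the p-values reflect library-to-library spread, which may be technical.

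Sialyltransferases are Golgi enzymes that move sialic acid from its activated form, CMP-sialic acid, onto the ends of sugar chains. The class gives the usual linkage: ST3Gal enzymes add sialic acid in 3-linkage to galactose, and ST6Gal enzymes in 6-linkage to galactose. ST6GalNAc enzymes usually add it in 6-linkage to N-acetylgalactosamine, the sugar that starts mucin-type O-glycans. Not every ST6GalNAc enzyme acts mainly on those chains. In the colon, sialic acid gives the mucin MUC2 much of its negative charge and caps chains that bacterial enzymes otherwise degrade. Several of these enzymes, St3gal6, St6galnac3 and St6galnac6 among them, also act on glycolipids.

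The gene counts summed to 10085637–17111987 per library, and levels are given as CPM, each count divided by the library's gene counts in megacounts. Among 7 goblet markers the summed level was 55912–66552 CPM in SpdefKO_GC and 50106–57083 CPM in WT_GC, against 472–519 CPM in SpdefKO_EC and 529–728 CPM in WT_EC, so the labelled fractions carried their markers. Spdef itself averaged 385 ± 69.6 CPM in SpdefKO_GC and 306 ± 19 CPM in WT_GC (SD, n = 4 each). It averaged 2.04 ± 0.926 CPM in SpdefKO_EC and 2.65 ± 0.848 CPM in WT_EC. Neither genotype difference was called (log2 change 0.33 in goblet cells and -0.28 in the other cells), so the Spdef count does not check the label SpdefKO, and the genotype comparisons rest on the labels. The sources used here do not name the exons that the deletion removes.

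The members lie on 7 chromosomes, with 2 pairs of close neighbours. St6galnac4 (chr2:32587095-32599698) and St6galnac6 (chr2:32599709-32620806) follow each other on the plus strand with a gap of 10 bases in the GENCODE annotation of GRCm38. St6galnac2 (chr11:116675303-116694868) and St6galnac1 (chr11:116765025-116775507) lie 70.2 kb apart on the minus strand. St6gal1, the tested member with the widest difference between fractions, is at chr16:23224740-23360350 on the plus strand. St3gal4, the tested member with the lowest ratio between genotypes in goblet cells, is at chr9:35046576-35119268 on the minus strand.

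The 250 bases before the annotated starts of these last genes are shown because Spdef belongs to the ETS family of transcription factors, whose sites centre on GGA, with GGAT the form usually given for Spdef. The sequences are from RefSeq (GRCm38.p6), written 5′ to 3′ on the gene's strand, with GGAT, or ATCC where it lies on the other strand, in capitals. The St6gal1 windows are chr16:23224490-23224739, chr16:23225771-23226020 and chr16:23290220-23290469 on the plus strand, and that of St3gal4 is chr9:35116865-35117114 on the minus strand.
St6gal1 window 1: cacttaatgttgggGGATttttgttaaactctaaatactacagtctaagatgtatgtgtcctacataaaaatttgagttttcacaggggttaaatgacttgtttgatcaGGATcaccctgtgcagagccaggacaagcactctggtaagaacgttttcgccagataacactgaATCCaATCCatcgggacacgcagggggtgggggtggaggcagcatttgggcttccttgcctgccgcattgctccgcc
St6gal1 window 2: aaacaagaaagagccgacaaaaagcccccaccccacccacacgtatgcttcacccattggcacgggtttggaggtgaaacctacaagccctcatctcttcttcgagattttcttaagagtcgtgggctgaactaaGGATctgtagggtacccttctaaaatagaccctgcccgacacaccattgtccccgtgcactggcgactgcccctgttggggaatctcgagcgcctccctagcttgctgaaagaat
St6gal1 window 3: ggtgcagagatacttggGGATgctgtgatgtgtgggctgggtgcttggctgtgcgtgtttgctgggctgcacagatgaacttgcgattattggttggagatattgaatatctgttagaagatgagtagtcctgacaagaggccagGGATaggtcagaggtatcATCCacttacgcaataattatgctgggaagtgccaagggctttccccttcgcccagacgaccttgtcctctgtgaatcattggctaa
St3gal4: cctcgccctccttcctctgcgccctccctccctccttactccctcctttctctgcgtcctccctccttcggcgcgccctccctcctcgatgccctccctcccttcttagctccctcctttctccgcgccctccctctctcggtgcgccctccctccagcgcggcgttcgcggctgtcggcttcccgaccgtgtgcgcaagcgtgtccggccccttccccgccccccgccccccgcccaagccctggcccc
The St6gal1 windows held 4, 1 and 3 matches on either strand, and the St3gal4 window held 0. That St3gal4 window, like St6gal1 windows 2 and 3, lies inside the gene's GENCODE span. The bases before the outer GENCODE start of St3gal4 were not searched. A match is a description of the letters only, since 74.2% of 32536 such windows of mouse genes held GGAT. The longer form CCGGAT, which contains GGAT, was found in 4.98% of all windows and GTTAAT, the core of HNF1 sites, in 6.47%, and neither was in any of the 10 windows of the 7 members with an entry.

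Goblet cells and the other epithelial cells carried the tested sialyltransferase transcripts at different levels. Of the 10 members, 8 passed the filter on low counts and entered edgeR's quasi-likelihood test, adjusted by Benjamini and Hochberg's method over 12915 genes, with a threshold of 0.05 on adjusted p. In goblet cells against the other epithelial cells, 5 rose and 3 fell, in both genotypes. The background was high: 28.0% of tested genes rose and 28.4% fell in SpdefKO_GC against SpdefKO_EC, and 31.0% rose and 30.2% fell in WT_GC against WT_EC. St6gal1 and all 3 tested ST6GalNAc genes were higher in goblet cells, while 3 of the 4 ST3Gal genes were lower. The median log2 change of the 8 tested members was 0.81 in SpdefKO and 1.11 in WT cells, beside 0.03 and 0.05 for all tested genes.

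**Figure D1:**
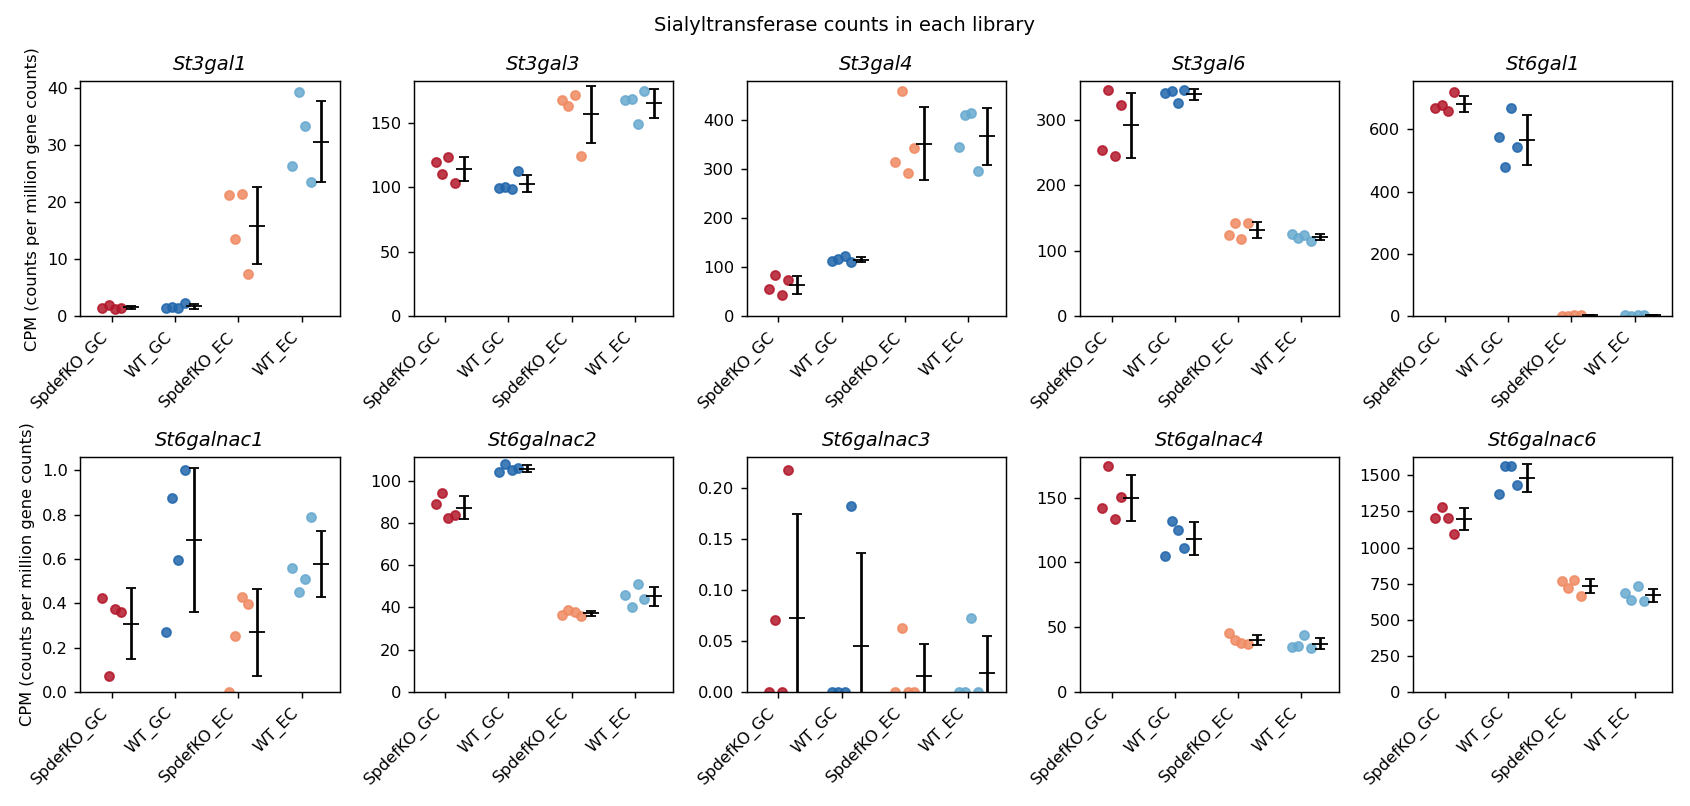
Level of each of the 10 sialyltransferases in CPM (y axis, from 0, a separate scale for each gene) in the 16 libraries, by group on the x axis. Points are libraries, and the bar beside them is the mean with its SD; St6gal1 is near 0 in both EC groups, and St6galnac1 and St6galnac3 stay at about 1 CPM or less in every library.

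St6gal1, which adds 6-linked sialic acid to the lactosamine ends of N-glycans, separated the fractions most. It had 668, 677, 660.1 and 719 CPM in the SpdefKO_GC libraries 3, 5, 7 and 19, against 2.00, 2.26, 2.51 and 2.78 CPM in the SpdefKO_EC libraries 4, 6, 8 and 20. It had 575, 479, 669 and 542 CPM in the WT_GC libraries 9, 11, 13 and 18, against 3.17, 2.26, 2.98 and 3.15 CPM in the WT_EC libraries 10, 12, 14 and 17. Every goblet cell library lay far above every library of the other cells. The log2 change was 8.05 ± 0.13 in SpdefKO cells (264-fold, adjusted p = 1.56e-18) and 7.53 ± 0.13 in WT cells (184-fold, adjusted p = 1.52e-18). The other epithelial cells held 0.350% of the goblet cell level in SpdefKO and 0.510% in WT mice. For the 7 goblet markers that share ran from 0.206% (the mucin Muc2) to 4.78% (Agr2) in SpdefKO and from 0.380% (Muc2) to 4.81% (Agr2) in WT mice, with 3 markers below St6gal1 and 4 above it in both genotypes. St6gal1 also shares 200 exon bases with BC106179 on the opposite strand, which was not analysed here. The part of goblet cell RNA in the St6gal1 counts of the mCherry-negative cells was not tested.

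St3gal1, which caps the galactose of core 1 O-glycans, showed the opposite distribution. It had 1.46, 1.91, 1.27 and 1.53 CPM in SpdefKO_GC libraries 3, 5, 7 and 19, against 21.2, 13.5, 21.3 and 7.34 CPM in SpdefKO_EC libraries 4, 6, 8 and 20. It had 1.49, 1.69, 1.46 and 2.28 CPM in WT_GC libraries 9, 11, 13 and 18, against 26.3, 39.3, 33.3 and 23.4 CPM in WT_EC libraries 10, 12, 14 and 17. The fractions did not overlap. The gene fell by 3.50 ± 0.32 on the log2 scale in SpdefKO (11.3-fold, adjusted p = 7.51e-08) and by 4.24 ± 0.31 in WT goblet cells (18.9-fold, adjusted p = 4.03e-09). Goblet cells held 9.73% of the level of the other cells in SpdefKO and 5.66% in WT mice. The 7 absorptive markers ran from 3.35% (Aqp8) to 57.3% (Guca2a) in SpdefKO and from 1.68% (Slc9a3) to 21.9% (Guca2a) in WT mice, with 5 markers below St3gal1 and 2 above it in SpdefKO, and 4 below and 3 above in WT mice. The part of absorptive cell RNA in the St3gal1 counts of goblet cells was not tested.

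The other ST3Gal genes differed by smaller factors. St3gal4, whose enzyme prefers lactosamine chains with 4-linked galactose, averaged 63.7 ± 17.9 CPM in SpdefKO_GC against 351 ± 73.9 CPM in SpdefKO_EC, and 115 ± 5.29 CPM in WT_GC against 366 ± 57.4 CPM in WT_EC (SD, n = 4 each). It fell by 2.58 ± 0.19 in SpdefKO and by 1.74 ± 0.19 in WT goblet cells on the log2 scale, with adjusted p = 7.70e-09 and 5.20e-07. St3gal3, whose enzyme prefers chains with 3-linked galactose, averaged 114 ± 9.29 CPM in SpdefKO_GC against 156 ± 21.8 CPM in SpdefKO_EC, and 103 ± 6.51 CPM in WT_GC against 165 ± 11.1 CPM in WT_EC. Its log2 change was -0.58 ± 0.09 in SpdefKO and -0.76 ± 0.09 in WT cells, with adjusted p = 2.49e-05 and 8.31e-07. St3gal6, another lactosamine enzyme, was the ST3Gal gene that ran the other way. It averaged 292 ± 49.7 CPM in SpdefKO_GC against 132 ± 12.4 CPM in SpdefKO_EC, and 339 ± 8.69 CPM in WT_GC against 121 ± 4.87 CPM in WT_EC. Its log2 change was 1.03 ± 0.10 in SpdefKO and 1.41 ± 0.10 in WT cells, with adjusted p = 5.79e-08 and 6.34e-10. St3gal6 shares 1603 exon bases with Dcbld2 on the opposite strand, which had 6.75–11.8 CPM as group means. For none of these 3 genes did a goblet cell library overlap a library of the other cells of its genotype. The share of all tested genes without such overlap was not counted, and 31.0% of them rose and 30.2% fell between the WT fractions.

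The ST6GalNAc genes that passed the filter were all higher in goblet cells. St6galnac6, whose enzyme sialylates gangliosides and makes disialyl Lewis a in human colon, averaged 1198 ± 78.0 CPM in SpdefKO_GC against 732 ± 50.2 CPM in SpdefKO_EC, and 1482 ± 98.7 CPM in WT_GC against 670.1 ± 46.2 CPM in WT_EC. Its log2 change was 0.58 ± 0.07 in SpdefKO and 1.07 ± 0.07 in WT cells, with adjusted p = 1.08e-06 and 2.27e-10. St6galnac4, which adds a further sialic acid to sialylated core 1, averaged 150.0 ± 17.7 CPM in SpdefKO_GC against 40.0 ± 3.88 CPM in SpdefKO_EC, and 118 ± 12.6 CPM in WT_GC against 37.2 ± 4.47 CPM in WT_EC. Its log2 change was 1.78 ± 0.10 in SpdefKO and 1.59 ± 0.10 in WT cells, with adjusted p = 2.81e-11 and 1.26e-10. St6galnac2, which sialylates the first sugar of core 1 O-glycans, averaged 87.3 ± 5.39 CPM in SpdefKO_GC against 37.1 ± 1.31 CPM in SpdefKO_EC, and 106 ± 1.54 CPM in WT_GC against 45.3 ± 4.43 CPM in WT_EC. Its log2 change was 1.11 ± 0.07 in SpdefKO and 1.14 ± 0.07 in WT cells, with adjusted p = 7.33e-11 and 3.32e-11. Here too no libraries overlapped between the fractions of a genotype, and the share of all tested genes without overlap was not counted.

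The remaining members were at the limit of this depth. St6galnac1, whose enzyme makes the sialyl-Tn antigen and is known for sialylating human colonic mucin, had 18 counts over the 4 SpdefKO_GC libraries and 39 over the WT_GC libraries. It had 15 counts over the SpdefKO_EC libraries and 33 over the WT_EC libraries. Pooled, this was 0.312 CPM in SpdefKO_GC (95% Poisson interval 0.185–0.492) and 0.673 CPM in WT_GC (0.479–0.921), against 0.255 CPM in SpdefKO_EC (0.143–0.420) and 0.578 CPM in WT_EC (0.398–0.812), the intervals covering counting error only. Without the filter its log2 change was -1.12 in SpdefKO_GC against WT_GC (adjusted p = 0.187) and -1.11 in SpdefKO_EC against WT_EC (adjusted p = 0.284), so the lower counts did not pass the test. St6galnac3, an enzyme of glycolipids and O-glycans, had 4 counts in SpdefKO_GC and 2 in WT_GC, against 1 in SpdefKO_EC and 1 in WT_EC, near or under the floor of 3 counts per group.

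Divided by the exon length of each gene (CPM per kb), St6galnac6 ranked first in every group, at 249 ± 16.2 in SpdefKO_GC and 308 ± 20.5 in WT_GC, against 152 ± 10.4 in SpdefKO_EC and 139 ± 9.60 in WT_EC. In goblet cells of both genotypes St6gal1 came next, at 139 ± 5.37 CPM per kb in SpdefKO_GC and 115 ± 16.2 in WT_GC, with no library overlapping its neighbours in the order. In SpdefKO_GC there followed St3gal6, St3gal3, St6galnac4, St3gal4, St6galnac2, St3gal1, St6galnac1 and St6galnac3. Neighbours overlapped there between St3gal6 and St3gal3, St6galnac4 and St3gal4, and St3gal4 and St6galnac2. In WT_GC the order after St6gal1 was St3gal6, St3gal4, St3gal3, St6galnac2, St6galnac4, St6galnac1, St3gal1 and St6galnac3, and the neighbours St3gal4 and St3gal3, St6galnac2 and St6galnac4, and St6galnac1 and St3gal1 overlapped. In the mCherry-negative cells St3gal4 was next after St6galnac6, at 120.2 ± 25.3 CPM per kb in SpdefKO_EC and 125 ± 19.6 in WT_EC, and overlapped it in both genotypes. St3gal3, St3gal6, St6galnac2, St6galnac4, St3gal1, St6gal1, St6galnac1 and St6galnac3 followed in both EC groups. The overlapping neighbours there were St6galnac2 with St6galnac4 and St6galnac1 with St6galnac3 in SpdefKO_EC, and St6galnac4 with St3gal1 in WT_EC.

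**Figure D2:**
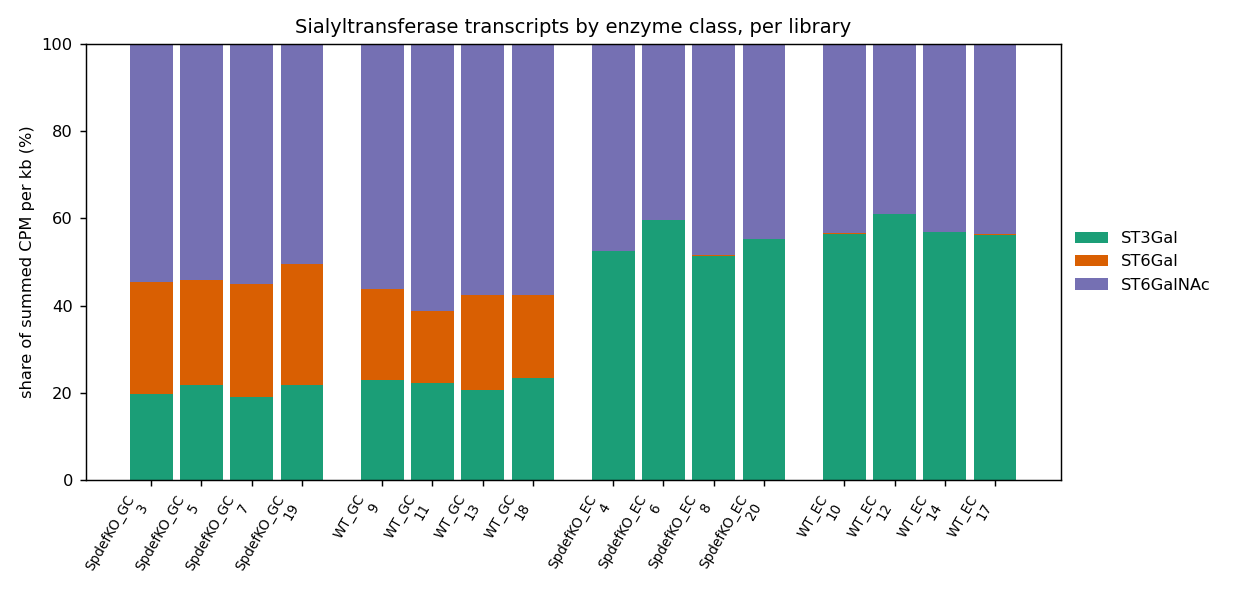
Share of the summed CPM per kb of the 10 members (y axis, %) held by the ST3Gal, ST6Gal and ST6GalNAc classes, 1 bar for each library, labelled by group and library number. The ST6Gal part, which is St6gal1 alone, is 24.1–27.8% in SpdefKO_GC, 16.4–21.6% in WT_GC and under 1% in every EC library.

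Summed by class, the ST6Gal share of sialyltransferase transcripts per kb was 25.9 ± 1.54% in SpdefKO_GC and 19.5 ± 2.28% in WT_GC, against 0.134 ± 0.0265% in SpdefKO_EC and 0.163 ± 0.0305% in WT_EC (SD, n = 4 each). The ST3Gal share was 20.6 ± 1.40% in SpdefKO_GC and 22.3 ± 1.15% in WT_GC, against 54.7 ± 3.66% in SpdefKO_EC and 57.6 ± 2.25% in WT_EC. The ST6GalNAc share was 53.5 ± 2.12% in SpdefKO_GC and 58.2 ± 2.16% in WT_GC, against 45.2 ± 3.66% in SpdefKO_EC and 42.2 ± 2.22% in WT_EC. The plot of class shares by library shows the ST6Gal part as a visible band in the goblet cell libraries, with the range of SpdefKO_GC above that of WT_GC. A share depends on the whole sum, of which St6galnac6 held 46.4% in SpdefKO_GC and 52.0% in WT_GC. In CPM, St6gal1 in WT_GC library 13 (669) lay within the SpdefKO_GC range of 660.1–719. The sum over the members was 536 ± 24.2 CPM per kb in SpdefKO_GC and 592 ± 27.8 in WT_GC, against 365 ± 27.7 in SpdefKO_EC and 362 ± 24.3 in WT_EC. In bulk RNA, fewer cells of a type and less RNA per cell cannot be told apart.

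In SpdefKO_GC against WT_GC the members moved by small factors and in both directions. Of the 8 tested, 2 rose and 3 fell, beside 10.4% of all tested genes that rose and 11% that fell. St3gal4, St6galnac2 and St6galnac6 fell, and St6galnac4 and St6gal1 rose. The median log2 change of the 8 was -0.18, beside 0.00 for all tested genes. St3gal4 had the widest change, and the next was 1.27-fold, for St6galnac4.

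St3gal4 had 55.9, 83.4, 42.8 and 72.7 CPM in SpdefKO_GC libraries 3, 5, 7 and 19, against 113, 116, 122 and 109.8 CPM in WT_GC libraries 9, 11, 13 and 18. The groups did not overlap, and the SpdefKO_GC libraries were spread more widely than the WT_GC libraries. The log2 change was -0.86 ± 0.19 (1.81-fold lower, adjusted p = 0.00401). A non-coding gene on the opposite strand, 4930581F22Rik, shares 412 exon bases with St3gal4 and also fell, with 0.727 ± 0.378 CPM in SpdefKO_GC and 1.75 ± 0.682 CPM in WT_GC (log2 change -1.29 ± 0.38, adjusted p = 0.0218). The sources used here give no strand setting for the counting, so reads in the shared bases cannot be assigned to either gene.

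St6galnac6 had 1206, 1284, 1207 and 1094 CPM in the SpdefKO_GC libraries, against 1369, 1563, 1567 and 1431 CPM in the WT_GC libraries. All SpdefKO_GC values were below all WT_GC values, and the log2 change was -0.31 ± 0.07 (adjusted p = 0.00442). St6galnac2 had 89.2, 94.0, 82.2 and 83.7 CPM in the SpdefKO_GC libraries, against 104, 108, 105 and 106 CPM in the WT_GC libraries. The groups again did not overlap, and the log2 change was -0.28 ± 0.07 (adjusted p = 0.00542). St6galnac2 shares 497 exon bases with the opposite-strand gene 1810032O08Rik, which had a log2 change of 0.17 (adjusted p = 0.347). Another GENCODE entry with the symbol St6galnac2, at 116677483-116681290 on the same strand, shares 383 exon bases with the member. The effect of that entry on the counts was not tested.

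St6galnac4, the neighbour of St6galnac6, moved the other way. It had 142, 175, 133 and 150.3 CPM in the SpdefKO_GC libraries, against 105, 132, 125 and 111 CPM in the WT_GC libraries. The lowest SpdefKO_GC value lay just above the highest WT_GC value, and the log2 change was 0.34 ± 0.10 (adjusted p = 0.0203). The call was lost without SpdefKO_GC library 5 (adjusted p = 0.0736) or WT_GC library 9 (0.0689), within a range of 0.00711–0.0736 over 22 alternative settings. For St6gal1 the log2 change was 0.26 ± 0.09 (adjusted p = 0.0447), and WT_GC library 13, with 669 CPM, reached into the SpdefKO_GC range of 660.1–719 CPM. That call was lost without SpdefKO_GC library 5 or 19, or WT_GC library 9, 11 or 18, with upper-quartile scaling and with only the compared groups in the fit, and adjusted p ranged over 0.0104–0.116.

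The other ST3Gal genes did not pass the test in goblet cells. St3gal6 had 255, 345, 245 and 322 CPM in the SpdefKO_GC libraries, against 341, 344, 326 and 345 CPM in the WT_GC libraries (log2 change -0.22 ± 0.10, adjusted p = 0.128). Its SpdefKO_GC libraries 3, 7 and 19 lay below all WT_GC libraries and library 5 just above them, and without library 5 it passed the test (-0.32, adjusted p = 0.0218, against a highest value of 0.357 over the settings). In SpdefKO_GC, libraries 3 and 7 were also the lowest for St3gal4. For St3gal3 the log2 change was 0.14 ± 0.09 (adjusted p = 0.293), and for St3gal1 it was -0.15 ± 0.41 (adjusted p = 0.831).

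Markers of other cell types and states moved with genotype in the same goblet cell libraries. Summed absorptive markers stood at 920–1114 CPM in SpdefKO_GC and 529–638 CPM in WT_GC, with 5 of 7 higher, and enteroendocrine markers at 201–288 CPM and 81.3–117 CPM in the same order of groups, with 7 of 7 higher. None of these markers was at 0 in either group. Guca2a made up the largest part of the absorptive sum, with means of 566 CPM in SpdefKO_GC and 263 CPM in WT_GC. Summed interferon response genes stood at 354 CPM in SpdefKO_GC library 5, 218 in library 3, 129 in library 7 and 114 in library 19, against 84.3–91.0 CPM in WT_GC, with 5 of 6 genes higher. Proliferation genes summed to 1204–1968 CPM in SpdefKO_GC and 774–1111 CPM in WT_GC, with 2 of 5 higher, and SpdefKO_GC libraries 3 and 7, the lowest for St3gal4, held the highest sums, 1968 and 1639 CPM. The part of these cells and states in the changes of the members was not tested.

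**Figure D3:**
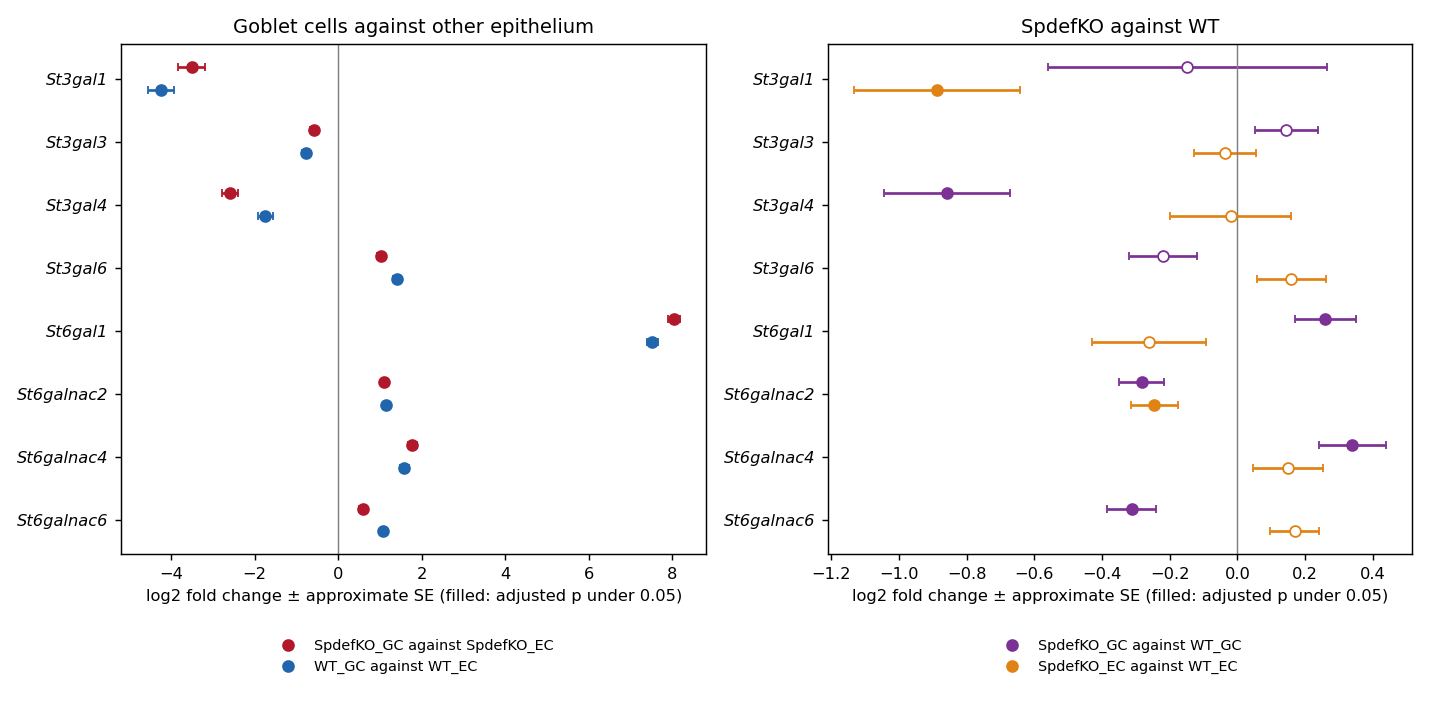
Log2 fold change of the 8 tested members (x axis) with its approximate standard error; left, goblet cells over the other epithelial cells in SpdefKO and WT mice; right, SpdefKO over WT in goblet cells and in the other epithelial cells. Filled points passed an adjusted p of 0.05; all fraction changes are filled, and between genotypes 5 are filled in goblet cells and 2 in the other cells.

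In SpdefKO_EC against WT_EC, 2 of the 8 tested members fell and none rose, beside 6.54% of all tested genes that fell and 6.09% that rose. The genes that fell were St3gal1 and St6galnac2. The median log2 change of the 8 was -0.03, beside 0.01 for all tested genes.

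St3gal1 averaged 15.8 ± 6.75 CPM in SpdefKO_EC and 30.6 ± 7.14 CPM in WT_EC (SD, n = 4 each), a log2 change of -0.89 ± 0.24 (1.85-fold lower, adjusted p = 0.0260). All 4 SpdefKO_EC libraries lay below all 4 WT_EC libraries. Within SpdefKO_EC, St3gal1 was lowest in library 20 (7.34 CPM) and next lowest in library 6 (13.5 CPM), which also held the lowest sums of absorptive markers, 7115 and 7822 CPM, against 8471 CPM in library 4 and 8489 CPM in library 8. The sum over WT_EC was 8254–9186 CPM. Within SpdefKO_EC the single markers did not all follow their sum. Krt20, Aqp8, Car4 and Slc9a3 were lowest in libraries 6 and 20, and Slc26a3 and Guca2a did not have that order. Slc20a1 ran the other way, with 1646 CPM in library 6 and 1350 CPM in library 20. It had 706 CPM in library 4 and 770 CPM in library 8. Of the 7 absorptive markers, Krt20 (log2 change 0.72) and Slc9a3 (0.58) rose and Guca2a fell (-0.24) in SpdefKO_EC against WT_EC, and the part of absorptive cells in the St3gal1 difference was not tested. The call was lost without SpdefKO_EC library 6, or WT_EC library 12 or 14, with no filter on low counts and with only the compared groups in the fit, with adjusted p over 0.00797–0.123.

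St6galnac2 had 36.3, 38.7, 37.7 and 35.9 CPM in SpdefKO_EC libraries 4, 6, 8 and 20, against 46.1, 40.2, 50.9 and 44.2 CPM in WT_EC libraries 10, 12, 14 and 17. The groups did not overlap, and the log2 change was -0.25 ± 0.07 (adjusted p = 0.0261), close in size to that in goblet cells. The call was lost without SpdefKO_EC library 4 or 20, or WT_EC library 10 or 14, and with only the compared groups in the fit, with adjusted p over 0.00709–0.0735. Summed goblet markers stood at 472–519 CPM in SpdefKO_EC and 529–728 CPM in WT_EC, with 4 of 7 lower. Their part in the St6galnac2 difference was not tested.

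The other members did not pass the test. St6galnac6 had 768, 719, 774 and 666 CPM in SpdefKO_EC, against 682, 635, 731 and 633 CPM in WT_EC (log2 change 0.17 ± 0.07, adjusted p = 0.129). St3gal4 had 313, 458, 292 and 342 CPM in SpdefKO_EC, against 344, 410.2, 414 and 295 CPM in WT_EC (-0.02 ± 0.18, adjusted p = 0.958). The libraries of the genotypes were interleaved for both genes. St3gal6 (0.16, adjusted p = 0.327), St6gal1 (-0.26, adjusted p = 0.329), St6galnac4 (0.15, adjusted p = 0.377) and St3gal3 (-0.04, adjusted p = 0.838), given as log2 changes, were not called either, and their libraries overlapped between genotypes.

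The interaction, the log2 genotype change in goblet cells minus that in the other epithelial cells, was called for 1 of the 8 members, St6galnac6, beside 4.65% of all tested genes called lower and 4.88% called higher. Its value was -0.48 ± 0.10 (adjusted p = 0.00553), from a log2 change of -0.31 in goblet cells and 0.17 in the other cells. The goblet cell excess of St6galnac6 was thus 1.5-fold in SpdefKO and 2.09-fold in WT mice. St3gal4 had an interaction of -0.84 ± 0.26 (adjusted p = 0.0532, over 0.0149–0.122 in the alternative settings without a block). St6gal1 had 0.52 ± 0.19 (adjusted p = 0.0934), St3gal6 -0.38 ± 0.14 (adjusted p = 0.105) and St6galnac2 -0.04 ± 0.10 (adjusted p = 0.865). St3gal1, called between genotypes only in the other cells, had an interaction of 0.74 ± 0.48 (adjusted p = 0.385), which was not called. St3gal3 had 0.18 ± 0.13 (adjusted p = 0.441) and St6galnac4 0.19 ± 0.14 (adjusted p = 0.464). The median over the 8 was 0.07, beside -0.02 for all tested genes.

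Further interactions were called when goblet and other cell libraries with adjacent numbers (3 and 4, 9 and 10, and so on) were treated as pairs, a pairing that the labels do not state. The CPM of St3gal4 in a goblet cell library was 0.147–0.212 times that of its adjacent library in SpdefKO and 0.284–0.373 times in WT mice, and these ranges did not overlap. With the pairs as a block in edgeR, 3 of the 8 members were called lower and 1 higher in the interaction, beside 13% and 12.8% of all tested genes in the same order of directions. St3gal4 was then called at -0.87 ± 0.12 (adjusted p = 4.43e-05), St3gal6 at -0.39 ± 0.08 (adjusted p = 0.00146) and St6gal1 at 0.51 ± 0.16 (adjusted p = 0.0216), besides St6galnac6 (adjusted p = 0.000388).

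Genes that supply and remove sialic acid were also compared, in lists chosen with earlier results of these data known. Of 5 tested genes of the CMP-sialic acid supply, 3 fell and 1 rose in SpdefKO_GC against WT_GC, where 11% of all tested genes fell and 10.4% rose. The Golgi transporter of CMP-sialic acid, Slc35a1, averaged 261 ± 29.0 CPM in SpdefKO_GC and 444 ± 12.1 CPM in WT_GC (log2 change -0.78, adjusted p = 3.96e-06). Cmas, which activates sialic acid with CMP, averaged 225 ± 22.8 CPM in SpdefKO_GC and 342 ± 5.17 CPM in WT_GC (-0.62, adjusted p = 8.46e-06). Gne, the first enzyme of sialic acid synthesis, averaged 1030.4 ± 66.1 CPM in SpdefKO_GC and 1330.5 ± 68.0 CPM in WT_GC (-0.37, adjusted p = 0.00404). Cmah, which converts CMP-linked N-acetylneuraminic acid into the N-glycolyl form that mice make, rose instead, with 411 ± 150.0 CPM in SpdefKO_GC and 249 ± 35.2 CPM in WT_GC (log2 change 0.71, adjusted p = 0.0123). The Cmah libraries of the genotypes overlapped, with SpdefKO_GC library 5 (274 CPM) inside the WT_GC range of 200–276 CPM. Its highest values were in SpdefKO_GC libraries 7 (616 CPM) and 3 (424 CPM). Nans, the sialic acid synthase, had a log2 change of -0.02 and was not called.

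Cmah was distributed between the fractions much as St6gal1 was. In the other epithelial cells it averaged 2.11 ± 0.280 CPM in SpdefKO_EC and 4.81 ± 0.817 CPM in WT_EC (log2 change -1.13, adjusted p = 0.0326). Its goblet cell excess was 7.46 on the log2 scale in SpdefKO and 5.62 in WT mice, and its interaction was 1.84 ± 0.37 (adjusted p = 0.00581). The Cmah change in the other cells rests on 20–41 counts per library in SpdefKO_EC and 60–83 in WT_EC. Of 7 goblet markers, 4 were also called lower in SpdefKO_EC than in WT_EC. The part of goblet cell RNA in the Cmah difference was not tested. In WT_GC against WT_EC all 5 tested supply genes rose, beside 31.0% of all tested genes, among them Slc35a1 (1.42), Gne (1.04) and Nans (0.97). Slc35a1 and Cmas had interactions of -0.80 and -0.69, with adjusted p = 0.000404 and 0.000349, so their genotype change in goblet cells differed from that in the other cells.

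**Figure D4:**
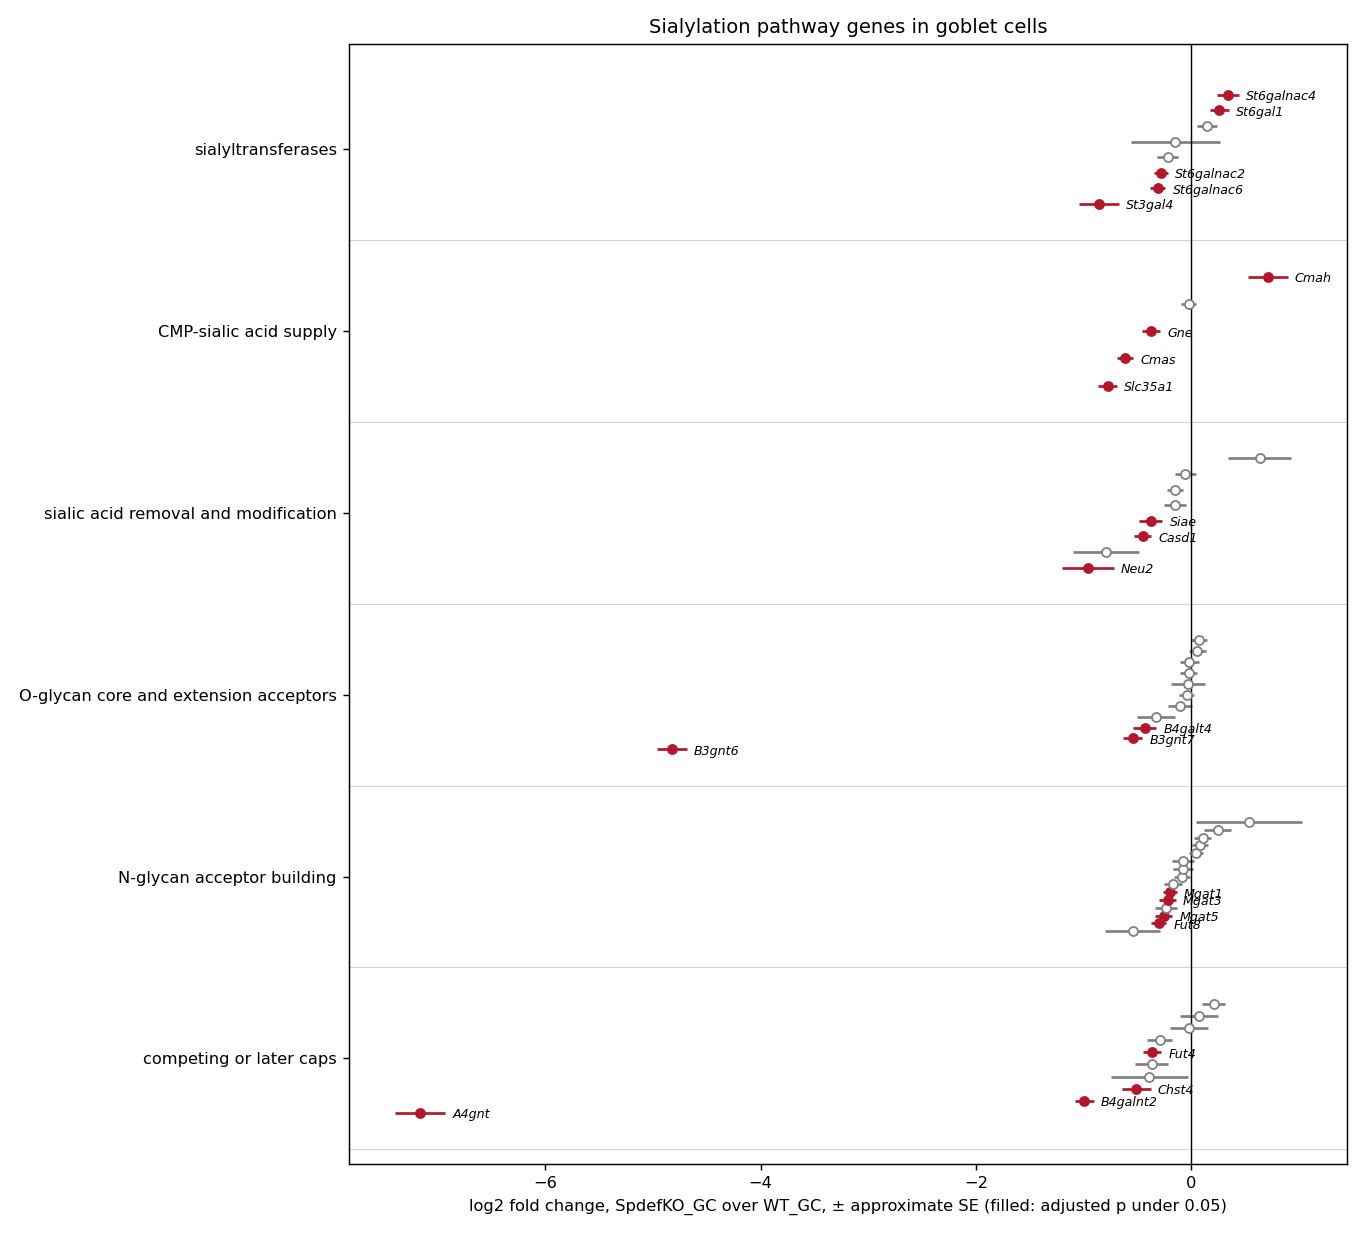
Log2 fold change of SpdefKO_GC over WT_GC (x axis) with its approximate standard error for the tested genes of 6 lists of the sialylation pathway, 1 list in each band. Filled, named points passed an adjusted p of 0.05; B3gnt6 and A4gnt lie far to the left, and the sialyltransferases lie between -0.86 and 0.34.

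Genes that remove or modify sialic acid showed 3 falls and no rise among 8 tested in SpdefKO_GC against WT_GC, beside the 11% of all tested genes that fell. These were the sialidase Neu2 (log2 change -0.96, 1.60 ± 0.510 CPM in SpdefKO_GC and 3.08 ± 0.738 CPM in WT_GC), the O-acetyltransferase Casd1 (-0.45) and the O-acetyl esterase Siae (-0.38). In SpdefKO_EC against WT_EC the lysosomal sialidase Neu1 (-0.58) and the lysosomal sialic acid exporter Slc17a5 (-0.36) fell. Of 10 further sialyltransferase genes outside the set, 3 passed the filter, and none of these was called in SpdefKO_GC against WT_GC. The polysialic and ganglioside enzyme genes St8sia5 (-4.87), St8sia4 (-4.71) and St8sia1 (-3.71) were lower in WT_GC than in WT_EC, and St8sia5 fell in SpdefKO_EC against WT_EC (-1.45). All 3 were low, with 0–5 counts per library in WT_GC and 9–75 in WT_EC, so the sizes of these fraction changes rest on few counts.

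Other enzymes build the acceptor chains for sialic acid or add caps that compete with it, and A4gnt and B3gnt6 among them had the widest changes in SpdefKO_GC against WT_GC. The counts of falls in the following lists stand beside 11% of all tested genes that fell and 10.4% that rose. These lists, too, were chosen with earlier results of these data known. Of 11 O-glycan core and extension genes 3 fell and none rose in SpdefKO_GC against WT_GC. B3gnt6, the core 3 synthase, averaged 2.15 ± 0.189 CPM in SpdefKO_GC and 60.9 ± 6.49 CPM in WT_GC (log2 change -4.83 ± 0.14, adjusted p = 4.21e-14), and B3gnt7 (-0.54) and B4galt4 (-0.43), which extend lactosamine chains, fell by smaller factors. Of 15 N-glycan genes 4 fell, among them the core fucosyltransferase Fut8 (-0.30) and the branching enzyme gene Mgat5 (-0.26), then Mgat3 (-0.22) and Mgat1 (-0.20). Of 10 tested genes for caps that compete with sialic acid or follow it, 4 fell. A4gnt, which adds terminal N-acetylglucosamine to O-glycans, averaged 0.293 ± 0.155 CPM in SpdefKO_GC and 43.3 ± 3.66 CPM in WT_GC (-7.17 ± 0.23, adjusted p = 9.43e-12). B4galnt2, which adds N-acetylgalactosamine next to 3-linked sialic acid (the Sda antigen), averaged 123 ± 7.58 CPM in SpdefKO_GC and 244 ± 27.1 CPM in WT_GC (-1.0 ± 0.09, adjusted p = 2.01e-07). The sulfotransferase gene Chst4 (-0.51) and the fucosyltransferase gene Fut4 (-0.37) were also lower.

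Between the mCherry-negative groups, 6.09% of all tested genes rose and 6.54% fell. In these lists 1 of 11 O-glycan genes rose, and of 15 N-glycan genes 1 rose and 1 fell. In SpdefKO_EC against WT_EC the O-glycan gene B3gnt3 (0.22) and the N-glycan gene Fut8 (0.28) rose, Mgat3 fell (-0.25), and none of the 10 tested cap genes was called. The interaction was called for B3gnt6 (-4.72), B3gnt7 (-0.65), B4galt4 (-0.55), B4galnt2 (-0.75), Fut4 (-0.62) and Fut8 (-0.59). With adjacent library numbers as a block, the interactions of Gne (-0.28), Siae (-0.39), B3gnt3 (-0.27), B3galt5 (-0.40) and Mgat2 (-0.23) were called as well. In WT_GC against WT_EC 8 of 11 O-glycan genes, 7 of 15 N-glycan genes and 7 of 10 cap genes rose, and 2, 3 and 3 of them fell, where 31.0% of all tested genes rose and 30.2% fell. B3gnt6 (5.50), A4gnt (8.50) and Gal3st2, a galactose sulfotransferase gene (6.89), led the rises, and B4galt1 (-2.35), B3gnt2 (-1.86) and Mgat4a (-1.70), which make lactosamine or branch N-glycans, led the falls. In the mCherry-negative cells, too, states moved with genotype: interferon response genes summed to 218–584 CPM in SpdefKO_EC and 207–230 CPM in WT_EC, with 5 of 6 higher, and enteroendocrine markers to 219–356 CPM and 508–690.4 CPM in the same order of groups, with 4 of 7 lower. Of 4 tested tuft cell markers 3 fell, and of 5 proliferation genes 2 rose. Their part in these differences was not tested.

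Over all 16 libraries, the genes with the pattern most like St6gal1 in log2 CPM were Fcgbp (Pearson r = 0.9979), Rasd2 (0.9979), Clca3 (0.9977, the deposited symbol of Clca1), Atoh1 (0.9975) and Zg16 (0.9973). Those most like St3gal1 were 4931406C07Rik (0.9884), Phgr1 (0.9861), Cdhr5 (0.9826), Abr (0.9816) and Card14 (0.9814). These values are descriptions over libraries that fall into goblet and other cells, and all of these genes share that gap.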

How the data were processed

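Per the labels' protocols, total RNA of sorted cells was made into stranded, ribosomal RNA-depleted, paired-end libraries. The deposited values used are raw read counts, whole numbers for each gene symbol in 16 libraries; a deposited normalized table was not used. The submitters' processing notes list mm10, STAR 2.4.0f and HTSeq 0.6.1p1 along with DESeq2 1.14. The counting's annotation and strand setting do not appear in the sources used here. Entries that name no gene held 47.1–54.7% of counts and were left out.

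Counts were fitted with edgeR 4.0.16 (limma 3.58.1, R 4.3.3) as 1 quasi-likelihood model of all 4 groups with TMM factors and the default low-count filter (minimum count 10), which kept 12915 genes. Adjusted p-values are Benjamini-Hochberg over these. Printed CPM are not TMM-scaled. Standard errors are approximate, taken as the size of the log2 change over the root of its F statistic. The fit was tested on simulated data with 200 changed genes. Library numbers are those of the labels, which tie none of them to an animal or day. Deviations from group means in log2 CPM correlated between goblet and other cell libraries of adjacent numbers in all 8 such pairs (r = 0.125–0.613 across 12915 genes, which are not independent), and in each of the 8 the adjacent library correlated best. Adjacent numbers were therefore also used as a block, which was chosen after seeing the data. Exon lengths and positions are from GENCODE M21. The DESeq2 alternative used version 1.42.0.

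The members and gene lists were chosen with earlier results of these data known. Named genes are all members, up to 4 called genes per list and comparison by size of change, and the 5 genes most correlated with the members of highest and lowest WT_GC over WT_EC change.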

Additional observations from a re-analysis of the deposited data

Results flagged for a closer look

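Over 40 sets of 4 libraries (10 genes in 4 groups), 5 had a library standing apart from the other 3 by Dixon's test. Chance gives about 1 in 20, a rate that does not apply to the 3 sets of St6galnac3, where the other libraries were all at 0 and any count stands apart. St3gal3 was highest in WT_GC library 18, at 112.4 CPM, with the other WT_GC libraries at 98.3–100.5 CPM. St6galnac4 was highest in WT_EC library 14, at 43.89 CPM, with the others at 34.3–35.7 CPM. St6galnac3 was highest in WT_GC library 18 (0.1823 CPM, 2 counts), SpdefKO_EC library 6 (0.06276 CPM, 1 count) and WT_EC library 14 (0.07279 CPM, 1 count).

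The genotype change of St6galnac6 differed between goblet cells and the other epithelial cells, with an interaction of -0.4824 on the log2 scale by edgeR's quasi-likelihood test (adjusted p = 0.00553). All 4 SpdefKO_GC libraries were below all 4 WT_GC libraries, while the SpdefKO_EC and WT_EC libraries overlapped.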

How the results depend on the processing

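All 16 fraction calls, the falls of St3gal4, St6galnac2 and St6galnac6 in goblet cells and the interaction of St6galnac6 held in every alternative setting run (other scaling, no filter, DESeq2, limma-voom, only the compared groups, each library left out). Of the member results under alternatives, 860 kept their direction and their side of the threshold, 19 lost and 10 gained a call, and 7 uncalled ones changed sign.

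In SpdefKO_GC against WT_GC the members called higher were 1 in place of 2 with upper-quartile factors and with only the compared groups, and 0–2 with a library left out. In SpdefKO_EC against WT_EC those called lower were 1 in place of 2 with no filter, 0 with only the compared groups, and 0–2 with a library left out. Interactions called lower were 2 in place of 1 with DESeq2 and with limma-voom (St3gal4 joined, adjusted p = 0.0149 and 0.0422) and 1–3 with a library left out. St3gal4 joined without SpdefKO_GC library 5 (0.0193) or SpdefKO_EC library 8 (0.0468), and St3gal6 without SpdefKO_GC library 5 (0.0259). Interactions called higher were 0–1, with St6gal1 at 0.60 without WT_GC library 13 (adjusted p = 0.0414).

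With a library left out, log2 changes in SpdefKO_EC against WT_EC ran over -0.098 to 0.057 for St3gal3 and -0.17 to 0.056 for St3gal4, and the interaction of St6galnac2 over -0.085 to 0.016. Apart from the construction of the alternatives, the causes were not tested.

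Taking the longest protein-coding transcript as the gene length, chosen after seeing the data, gave class shares for SpdefKO_GC, WT_GC, SpdefKO_EC and WT_EC of 18.1%, 13.2%, 0.0930% and 0.115% (ST6Gal), 17.5%, 18.8%, 45.8% and 48.7% (ST3Gal), and 64.4%, 68.0%, 54.1% and 51.1% (ST6GalNAc). It also swapped neighbours in the order by level: St6galnac2 with St6galnac4 in WT_GC and SpdefKO_EC, and St6galnac1 with St3gal1 in WT_GC.

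The groups share no library numbers. With adjacent numbers as a replicate block, a pairing the labels do not state and an alternative chosen after seeing the data, interactions called lower were 3 in place of 1 and higher 1 in place of 0 among the members, and 3329 in place of 1231 among all tested genes. The block kept all 16 fraction calls of the members. Genotype comparisons within a fraction lie between such pairs and could not be fitted with it. The fit of only the compared groups was not run for the interaction, which needs all 4. St6galnac1 and St6galnac3 did not pass the low-count filter, and without the filter neither was called in any of the 5 comparisons.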
